A study of Rattus norvegicus with 6 samples.

Results

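The 7 protein subunits of respiratory complex I that the mitochondrial genome encodes are given by the genes Mt-nd1, Mt-nd2, Mt-nd3, Mt-nd4, Mt-nd4l, Mt-nd5 and Mt-nd6. These genes were taken by name from a table of 32900 features, and all 7 were found. They are 7 of the 13 mitochondrial mRNAs in the table. The set was chosen by name, but with the difference between PWS and control lines in these same libraries already known, and it was selected on that measure. That difference is therefore given as a description. Counts of calls among the 7 genes are stated beside those of all genes, and are no evidence for it.

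RNA-seq was made from clonal INS-1(832/13)::mCherry lines, a rat insulinoma (beta cell tumour) line that carries a human insulin transgene and a mouse Ins2 C-peptide-mCherry reporter, grown in 7.5 mM glucose. Control lines 5-9, 2 and 16 carry a CRISPR/Cas9 deletion of the Prader-Willi syndrome (PWS) domain on the silent maternal allele. PWS lines 3, 19-1 and 19-4 also carry a deletion of the domain on the paternal allele, made in a later round with other guides. They so lack the domain's paternally expressed genes. In line 3 the paternal deletion is larger than in 19-1 and 19-4, with another proximal breakpoint and an insert of E. coli DNA. Lines 2 and 16 came from a transfection with a control vector. Lines 2 and 16 and all PWS lines were isolated from line 5-9, and 19-1 and 19-4 are subclones of 1 clone, so the 3 PWS lines are not all independent clones. Each line is 1 library of total RNA after rRNA depletion, and no label names separate cultures, so p-values measure the spread between these lines.

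Complex I takes electrons from NADH, passes them to ubiquinone and pumps protons out of the mitochondrial matrix, and its activity couples glucose metabolism to ATP production and insulin secretion in beta cells. Its subunits come from both genomes, with the mitochondrial ones forming the core of the membrane arm. The mitochondrial genome is transcribed from both strands as long RNAs that are cut into mRNAs, rRNAs and tRNAs. Mt-nd6 is read from the strand opposite to that of the other mitochondrial mRNAs, and Mt-nd4l and Mt-nd4 remain joined in 1 mature RNA.

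The libraries held between 26016478 and 36084261 counted reads under the counting used here, in which a read is counted at every place and feature it meets (nonunique all). Values are normalized counts, that is reads divided by the authors' size factor for each line. Snurf, a gene of the deleted domain, had 3992, 3160 and 3911 normalized counts in the controls 5-9, 2 and 16, against 2.04, 0 and 3.64 in PWS lines 3, 19-1 and 19-4. Snrpn and Mkrn3 of the same domain had 3149 to 3956 and 77.9 to 89.0 normalized counts in control lines and 0 to 3.64 and 0 in PWS lines, so all libraries matched their labels. All 12 beta cell markers looked at were present in every line, with a summed level of 627400 to 677300 in control lines and 381500 to 624000 in PWS lines. Ins1 and Iapp made up most of this sum and lay below all controls in each PWS line, while Chgb lay above all controls in each PWS line and the other 9 overlapped between the groups. Of 11 markers of fibroblasts, immune, endothelial, acinar, ductal, alpha and delta cells, 4 (Ptprc, Cdh5, Prss1 and Sst) had no read in any line, and the sum of the 11 was 180.8 to 212.6 in control lines and 162.6 to 180.0 in PWS lines. Line 19-4 stood apart within this sum, with 100 normalized counts of the alpha cell hormone gene Gcg against 0 to 19.0 in the other 5 lines and 46.4 of Pdgfra against 117 to 165. The part of these levels in the results was not tested.

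Mt-nd1, Mt-nd2, Mt-nd4, Mt-nd4l and Mt-nd5 had higher means in PWS lines, by 21.3% to 45.0% as ratios of geometric means, and Mt-nd3 and Mt-nd6 had slightly lower means, although Mt-nd6 moved to the higher side when reads were scaled by those outside the mitochondrial genome. Among all genes tested, 49.3% had a higher mean in PWS lines. The median log2 difference of the 7 was 0.38, beside -0.0028 over the 15579 genes tested. Only for Mt-nd1, Mt-nd2 and Mt-nd4l did every PWS line lie above every control line, and 8.43% of all genes tested showed that pattern. Because these libraries are bulk RNA, a change in the RNA of each cell and a change in the share of cells with much of it cannot be told apart.

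**Figure D1:**
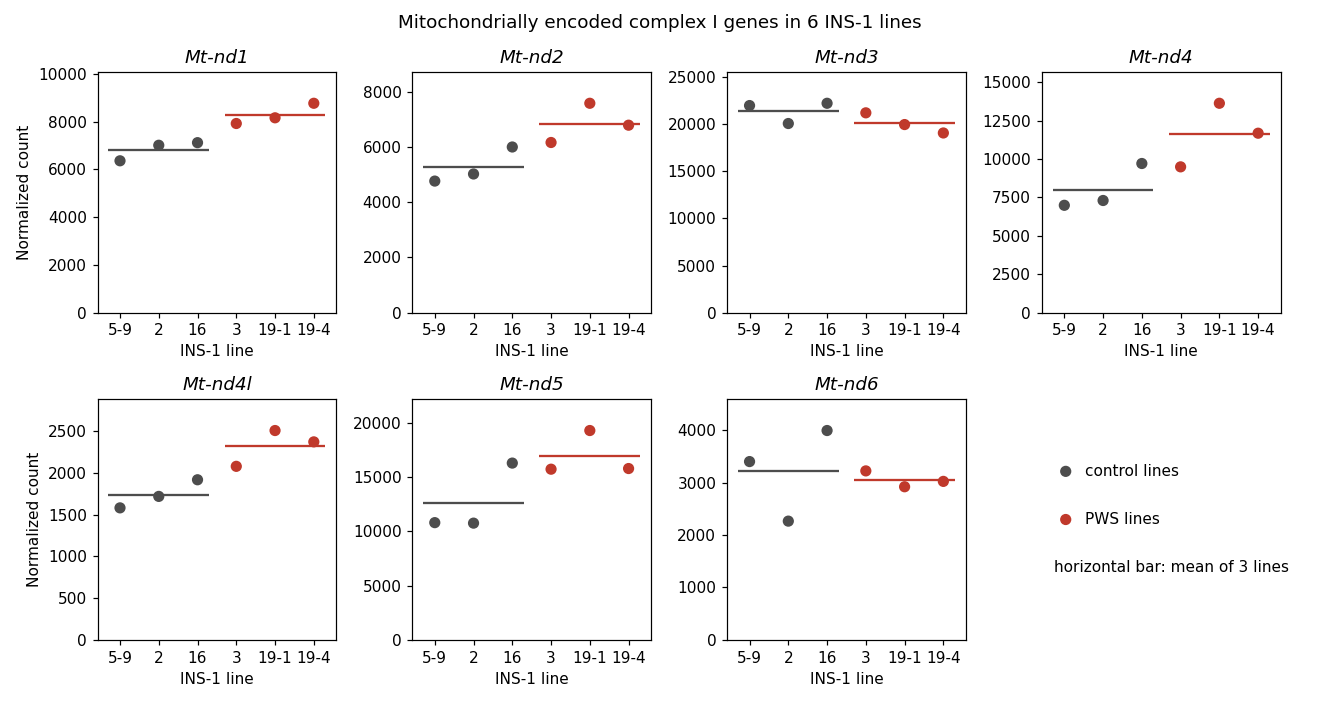
Normalized counts (vertical axes, from 0) of the 7 mitochondrially encoded complex I genes by INS-1 line, with grey points for controls, red points for PWS and a bar at the mean of 3 lines. The PWS points lie above all control points for Mt-nd1, Mt-nd2 and Mt-nd4l, while the groups overlap for Mt-nd3, Mt-nd4, Mt-nd5 and Mt-nd6.

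Mt-nd1 (ENSRNOG00000030644) encodes the subunit that forms much of the ubiquinone-binding region at the joint between the 2 arms of the complex. It had 6358, 7009 and 7118 normalized counts in the controls 5-9, 2 and 16, against 7920, 8159 and 8767 in PWS lines 3, 19-1 and 19-4. The groups did not overlap, and the lowest PWS line (3) was 11.3% above the highest control line (16). The group means were 6829 ± 411 (SD, n = 3) and 8282 ± 437 (SD, n = 3), a difference of 0.28 with a standard error (SE) of 0.074 on the log2(normalized count + 1) scale, on which all log2 differences here are given as PWS minus control. This was the smallest difference of the 5 genes with a higher mean, and it also had the smallest spread between lines of these 5, with coefficients of variation of 6.01% in control and 5.27% in PWS lines.

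Mt-nd2, Mt-nd4 and Mt-nd5 encode the 3 antiporter-like subunits, the large membrane proteins through which protons are thought to be pumped. Mt-nd2 (ENSRNOG00000031033) had 4762, 5019 and 5996 normalized counts in the controls 5-9, 2 and 16, against 6159, 7579 and 6785 in PWS lines 3, 19-1 and 19-4. The groups were separated by only 2.72%, between control line 16 and PWS line 3, a gap above 1 counting SE of their difference (1.86%) but within its 95% counting interval. The means were 5259 ± 651 (SD, n = 3) and 6841 ± 711 (SD, n = 3), a log2 difference of 0.38 (SE 0.11).

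Mt-nd4 (ENSRNOG00000029707) showed the largest difference of the 7. It had 6986, 7298 and 9706 normalized counts in the controls 5-9, 2 and 16, against 9488, 13626 and 11677 in PWS lines 3, 19-1 and 19-4. Control line 16 lay just above PWS line 3, by 2.3%, within the 95% counting interval of their difference, while both subclones of line 19 lay above every control line. The means were 7997 ± 1490 (SD, n = 3) and 11597 ± 2070 (SD, n = 3), a log2 difference of 0.54 (SE 0.16). It was 0.41 without PWS line 19-1 and 0.68 without control line 16.

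Mt-nd5 (ENSRNOG00000029971) had 10810, 10764 and 16300 normalized counts in the controls 5-9, 2 and 16, against 15737, 19302 and 15798 in PWS lines 3, 19-1 and 19-4. Here control line 16 exceeded 2 of the PWS lines, and only line 19-1 was above all controls. The other controls, 5-9 and 2, differed from each other by 0.427%, less than the counting SE of their difference (1.32%). The means were 12624 ± 3180 (SD, n = 3) and 16946 ± 2040 (SD, n = 3), a log2 difference of 0.45 (SE 0.17) that became 0.64 when control line 16 was left out and 0.35 when control line 2 was.

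Mt-nd4l, Mt-nd3 and Mt-nd6 encode small subunits that lie between the ubiquinone site and the antiporter-like subunits. Mt-nd4l (ENSRNOG00000031053) had 1583, 1720 and 1920 normalized counts in the controls 5-9, 2 and 16, against 2081, 2510 and 2374 in PWS lines 3, 19-1 and 19-4. The groups did not overlap, and PWS line 3 was 8.38% above control line 16. With means of 1741 ± 169 (SD, n = 3) and 2321 ± 219 (SD, n = 3), the log2 difference was 0.42 (SE 0.099).

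Mt-nd3 (ENSRNOG00000033615) had 21994, 20086 and 22237 normalized counts in the controls 5-9, 2 and 16, against 21221, 19976 and 19082 in PWS lines 3, 19-1 and 19-4. No PWS line was above the control mean, but PWS line 3 was higher than control line 2. The means were 21439 ± 1180 (SD, n = 3) and 20093 ± 1070 (SD, n = 3), a log2 difference of -0.093 (SE 0.079), which was -0.12 with RSEM and -0.033 when reads were scaled by those outside the mitochondrial genome. It was -0.057 without PWS line 19-4.

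Mt-nd6 (ENSRNOG00000029042), from the opposite strand, had 3403, 2266 and 3995 normalized counts in the controls 5-9, 2 and 16, against 3225, 2922 and 3025 in PWS lines 3, 19-1 and 19-4. All PWS lines lay within the range of the control lines, which spanned 0.82 on the log2 scale against 0.14 in PWS lines. The means were 3222 ± 879 (SD, n = 3) and 3057 ± 154 (SD, n = 3), and the log2 difference of -0.037 (SE 0.18) changed sign to 0.14 without control line 16 and 0.022 without control line 5-9, was 0.023 when reads were scaled by those outside the mitochondrial genome, and was -0.27 without control line 2.

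These differences between lines were mostly larger than counting error alone, since the 7 genes had between 1667 reads (Mt-nd4l in line 5-9) and 23165 reads (Mt-nd3 in line 5-9) per library. The counting error of a single value (1 SD) was at most 2.45% (Mt-nd4l). Of the 35 gaps between neighbours when the 6 lines were put in order for each gene, 4 were smaller than 1 counting SE of the difference and 10 lay within its 95% counting interval. Counting error here is that of reads, since the methods name no molecular identifiers for these total RNA libraries, and covers no other error.

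The order of the lines was alike in the 5 genes with a higher mean. Control lines 5-9 and 2 were the 2 lowest lines for each of them. Control line 16 was the highest control line for all 7 genes, above PWS line 3 for Mt-nd4 and Mt-nd5 and below it for Mt-nd1, Mt-nd2 and Mt-nd4l. Line 19-1 was the highest line for Mt-nd2, Mt-nd4, Mt-nd4l and Mt-nd5 and line 19-4 for Mt-nd1, while the geometric mean of the line 19 subclones exceeded line 3 by 6.78% for Mt-nd1 and by 32.9% for Mt-nd4. For Mt-nd3 and Mt-nd6 the line 19 subclones were lower than line 3, by means of 8.0% and 7.81%.

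**Figure D2:**
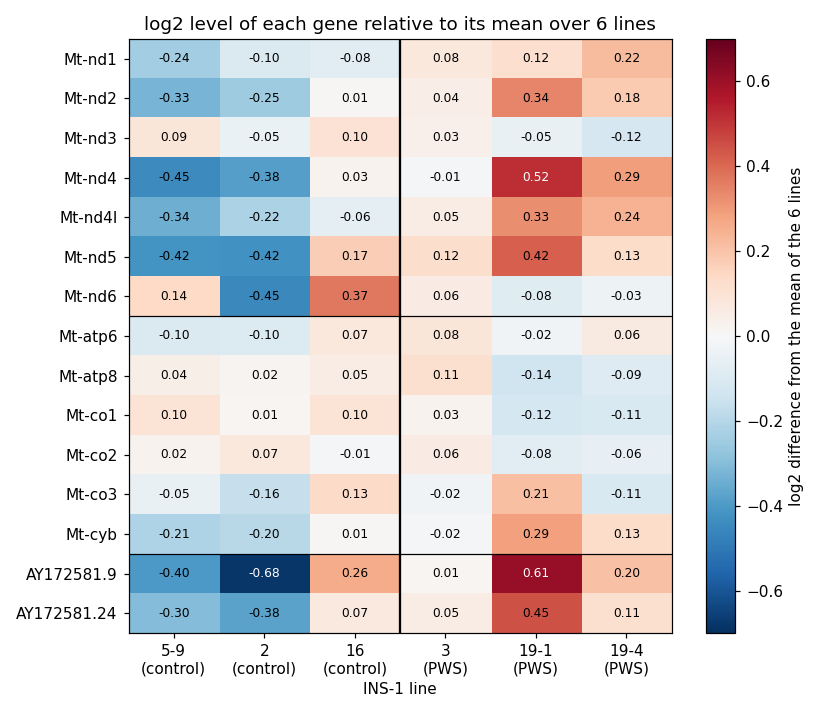
Log2 level of each mitochondrial gene in each INS-1 line relative to its own mean over the 6 lines (colour and printed value, in log2 units), for the 7 complex I genes, the 6 other mRNAs and the 2 unnamed rows with the most reads. Lines 5-9 and 2 are low and line 19-1 is high for Mt-nd2, Mt-nd4, Mt-nd4l, Mt-nd5, Mt-cyb, AY172581.9 and AY172581.24, and Mt-co1, Mt-co2 and Mt-atp8 are instead lowest in lines 19-1 and 19-4.

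The following counts use the contrast on which the 7 genes were selected, so an excess over all genes was fixed in advance by that choice and nothing is read from it. Across all 15579 genes, limma called none of the 7 at an adjusted p-value of 0.05, which 0.257% of genes passed in either direction. Of these 40 genes, 39 were lower and 1 was higher in PWS lines. In the same fit 5 of the 7 were higher at an unadjusted p-value under 0.05, and so were 6.0% of genes. On the recovered reads, edgeR's quasi-likelihood test called none of the 7, and DESeq2 called Mt-nd4 and Mt-nd4l as higher. Over all genes edgeR called 0.205%, with 1 gene higher and 31 lower. DESeq2 called 228 of 15579 genes, of which 106 (0.68% of genes) were higher. On the reads that met 1 place and 1 feature only (nonunique none counting), neither DESeq2 nor edgeR called any of the 7. There DESeq2 called 164 of 13971 genes (1.17%), of which 92 were higher. With edgeR 10 genes were called (0.0716%), of which 1 was higher. The log2 differences of Mt-nd4 and Mt-nd4l in limma were 0.54 and 0.42 under nonunique all counting and 0.52 and 0.39 under nonunique none counting, where Mt-nd4 had 41 to 82 reads per line.

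As a sum, the 7 genes had 55896, 54163 and 67271 normalized counts in the controls 5-9, 2 and 16, against 65832, 74074 and 67508 in PWS lines 3, 19-1 and 19-4. Control line 16 again lay among the PWS lines, and the means were 59110 ± 7120 (SD, n = 3) and 69138 ± 4360 (SD, n = 3). The other 6 mitochondrial mRNAs summed to 724103 ± 26400 (SD, n = 3) in control and 680414 ± 28300 (SD, n = 3) in PWS lines. The 7 genes made up 7.10%, 7.23% and 8.27% of the normalized counts of the 13 mitochondrial mRNAs in control lines 5-9, 2 and 16 and 8.46%, 9.94% and 9.31% in PWS lines 3, 19-1 and 19-4. The groups did not overlap in this share, but it is built on the values on which the 7 genes were selected, so nothing is read from that. The share was lower with nonunique none counting, at 5.42% to 6.28% in control and 6.43% to 7.45% in PWS lines, and 7.15% to 8.33% and 8.53% to 9.97% with RSEM. These shares mix a higher level of 5 of the genes with a lower mean of Mt-co1, which holds most mitochondrial mRNA reads. When Mt-co1 was left out of the sum, they were 25.85% to 27.83% in control and 28.19% to 29.45% in PWS lines.

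All 13 mRNAs together took 2.26% to 2.47% of the counted reads in control lines and 2.35% to 2.40% in PWS lines. With the 24 further rows named after the record of the rat mitochondrial genome, the mitochondrial share was 3.79%, 3.45% and 4.19% in control lines 5-9, 2 and 16 and 4.05%, 4.75% and 4.23% in PWS lines 3, 19-1 and 19-4. Line 19-1, which had the highest levels of 4 of the 7 genes, also had the highest mitochondrial share and the fewest reads.

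Mitochondrial genes lie end to end, and parts of the mitochondrial genome have copies in nuclear DNA, so a read can meet several genes or places. The 3 deposited countings of the same libraries treat such reads differently. The nonunique none table leaves out every read that aligns to more than 1 place or meets more than 1 feature, and RSEM divides such reads by estimation. For Mt-nd6, Mt-nd1 and Mt-nd2, 98.5%, 98.3% and 95.1% of the nonunique all reads remained under nonunique none counting. For Mt-nd5, Mt-nd3 and Mt-nd4l the shares were 72.2%, 48.9% and 37.7%. For Mt-nd4 it was 0.647%, with 41 to 82 reads left per line, so that nearly all Mt-nd4 reads also aligned elsewhere or met a second feature. RSEM gave Mt-nd4 between 5942 and 11912 normalized counts per line.

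**Figure D3:**
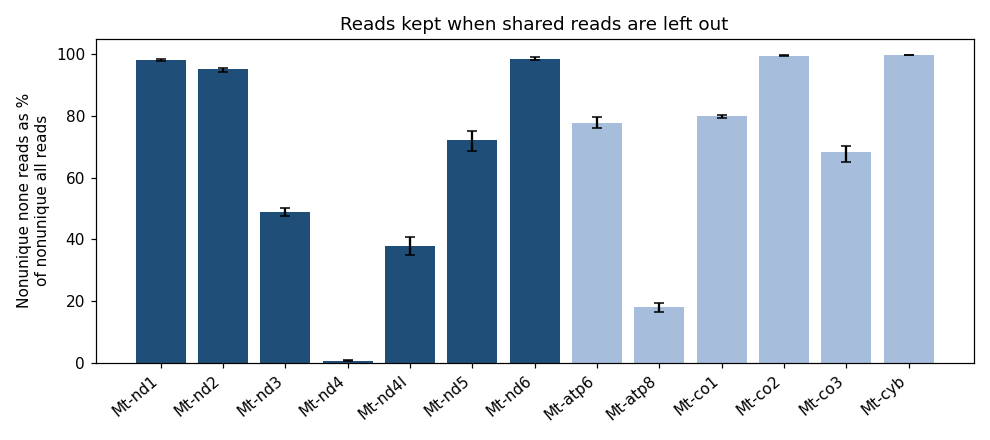
Reads under nonunique none counting as a percentage of the nonunique all reads (vertical axis) for the 7 complex I genes (dark) and the 6 other mitochondrial mRNAs (light), pooled over 6 lines, with the lowest and highest line as error bars. The share runs from 0.647% for Mt-nd4 to 98.5% for Mt-nd6 among the complex I genes.

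The differences between groups hardly depended on the counting. Under nonunique none counting the log2 differences of Mt-nd1, Mt-nd2, Mt-nd4, Mt-nd4l and Mt-nd5 were 0.28, 0.39, 0.52, 0.39 and 0.43, and with RSEM they were 0.28, 0.40, 0.55, 0.40 and 0.45. For Mt-nd3 and Mt-nd6 they were -0.080 and -0.031 under nonunique none counting and -0.12 and -0.017 with RSEM. In each table the groups were separate with PWS higher for Mt-nd1, Mt-nd2 and Mt-nd4l and overlapped for the other 4 genes, and 8.66% (nonunique none) and 8.36% (RSEM) of all genes had PWS lines all above control lines. The value of Mt-nd4 under nonunique none counting had a standard error of 0.27 and rested on the fewest reads. The 3 tables come from the same libraries, so they do not repeat the experiment.

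**Figure D4:**
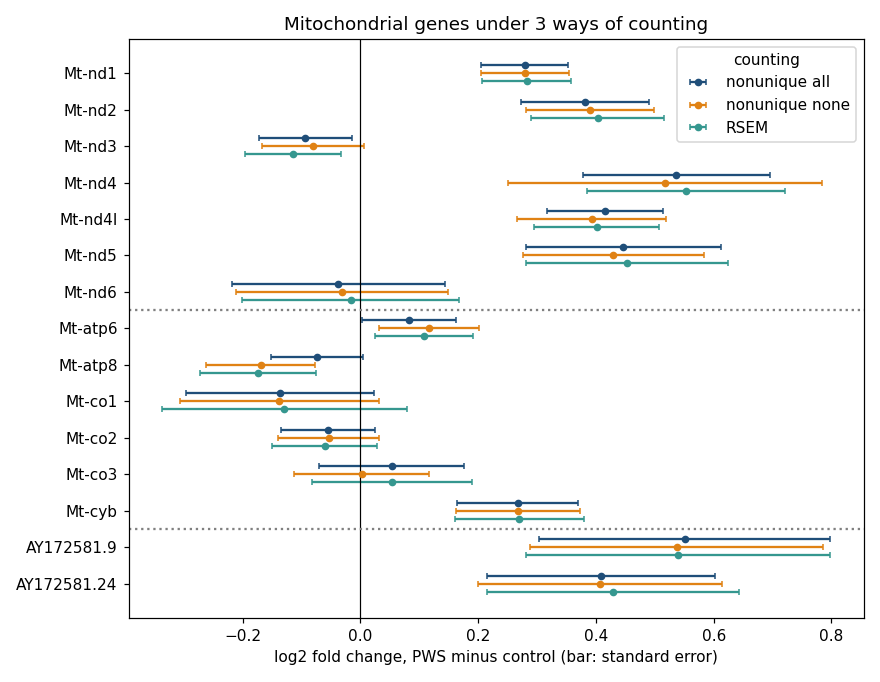
Log2 fold change between PWS and control lines (horizontal axis, positive when higher in PWS) with its standard error under nonunique all, nonunique none and RSEM counting, for the 7 complex I genes (top), the 6 other mitochondrial mRNAs (middle) and the unnamed rows AY172581.9 and AY172581.24 (bottom). The 3 countings lie close together for each complex I gene, from 0.52 to 0.55 for Mt-nd4 and from -0.037 to -0.017 for Mt-nd6.

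Ratios of 2 genes within a line, neighbours or not, do not depend on the scaling of the library. The values themselves also depend on gene length, which was not used here, so levels are not compared between genes. Mt-nd4 to Mt-nd4l, which share 1 RNA, had ratios of 4.41, 4.24 and 5.06 in control lines 5-9, 2 and 16 and 4.56, 5.43 and 4.92 in PWS lines 3, 19-1 and 19-4, so the groups overlapped. Mt-nd5 to Mt-nd6, neighbours on opposite strands, had ratios of 3.18, 4.75 and 4.08 in control and 4.88, 6.60 and 5.22 in PWS lines. All PWS lines were above all control lines in this ratio, also with RSEM, but under nonunique none counting PWS line 3 (3.39) lay below control line 2 (3.57). The ratio of Mt-nd1 to Mt-co1 was 0.0111 to 0.0130 in control and 0.0145 to 0.0177 in PWS lines, without overlap in any of the 3 tables. These ratios also use values on which the genes were selected, so nothing is read from the lack of overlap. The other 3 ratios looked at, Mt-nd5 to Mt-nd4, Mt-nd2 to Mt-nd1 and Mt-nd3 to Mt-co3, overlapped between the groups in all 3 tables.

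No call at an adjusted p-value of 0.05 was made among the other 6 mitochondrial mRNAs by limma, edgeR or DESeq2. The 1 with an unadjusted p-value under 0.05 was Mt-cyb, which encodes cytochrome b of complex III. It had 19939, 20193 and 23303 normalized counts in the controls 5-9, 2 and 16, against 22876, 28261 and 25275 in PWS lines 3, 19-1 and 19-4, with a log2 difference of 0.27 (SE 0.10, limma adjusted p = 0.403). Control line 16 lay above PWS line 3 here, as it did for Mt-nd4 and Mt-nd5. Mt-co1, the catalytic subunit of cytochrome oxidase, had 561082 ± 18700 (SD, n = 3) normalized counts in control and 510615 ± 29500 (SD, n = 3) in PWS lines. Its log2 difference was -0.14 (SE 0.16, limma adjusted p = 0.794). With the trend of limma left out its SE was 0.078 (adjusted p = 0.601), and DESeq2 also gave 0.078 (adjusted p = 0.579). The SE of 0.16 thus also reflects the trend fitted over all genes, not only the spread between lines.

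For Mt-atp8 and Mt-atp6, subunits of ATP synthase, the log2 differences were -0.074 and 0.082, and for Mt-co2 and Mt-co3, further subunits of cytochrome oxidase, they were -0.055 and 0.053. The adjusted p-values of these 4 lay between 0.744 and 0.914 in limma. When reads were scaled by those outside the mitochondrial genome, the log2 differences were -0.014 for Mt-atp8, 0.14 for Mt-atp6, -0.077 for Mt-co1, 0.0057 for Mt-co2 and 0.11 for Mt-co3. Over the lines left out Mt-co2 ran from -0.096 (without PWS line 3) to -0.029 (without PWS line 19-1). Mt-co3 was -0.015 without control line 2, -0.038 without PWS line 19-1 and 0.13 without control line 16, and was 0.002 under nonunique none counting. Over the lines left out Mt-atp8 ran from -0.15 (without PWS line 3) to -0.024 (without PWS line 19-1) and Mt-atp6 from 0.053 (without control line 5-9) to 0.14 (without control line 16). Mt-atp8 was -0.17 under both nonunique none counting and RSEM, and 18.1% of its reads were unique. The median over the 6 was -0.0009 with the deposited size factors (3 higher and 3 lower). It was 0.059 when reads were scaled by those outside the mitochondrial genome (4 higher and 2 lower).

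The files do not say which of the 24 further mitochondrial rows are rRNAs and which are tRNAs. Of the 24 rows, 14 had higher and 10 lower means (median 0.17), or 16 and 8 when reads were scaled by those outside the mitochondrial genome (median 0.23). At an adjusted p-value of 0.05, limma and edgeR called none of the 24 and DESeq2 called AY172581.14 as higher. At an unadjusted p-value under 0.05 in limma, 5 were higher and 2 lower, beside 935 and 833 of all 15579 genes. Only 0.201% of the AY172581.14 reads were unique, which left it under the filter on low values in nonunique none counting, so its call was not tested there. The 2 rows with the most reads were AY172581.24 (ENSRNOG00000043866) and AY172581.9 (ENSRNOG00000030478), with at least 96.7% of reads unique. AY172581.24 had 352060, 335212 and 456049 normalized counts in the controls 5-9, 2 and 16, against 451591, 593406 and 469880 in PWS lines 3, 19-1 and 19-4. It had a log2 difference of 0.41 (SE 0.19, limma adjusted p = 0.474). AY172581.9 had 67027, 55297 and 106183 in control lines 5-9, 2 and 16 and 89348, 135468 and 102191 in PWS lines 3, 19-1 and 19-4. Its log2 difference of 0.55 (SE 0.25, limma adjusted p = 0.449) became 0.82 when control line 16 was left out and was 0.35 when control line 2 was. In both rows, lines 5-9 and 2 were lowest and line 19-1 highest, the same lines as for Mt-nd5. The libraries were depleted of rRNA, and the part of that step in these levels was not tested.

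The nuclear genome encodes the remaining subunits of complex I. The 7 nuclear core subunits, which hold the flavin and the iron-sulfur clusters of the matrix arm or help bind ubiquinone, all had lower means with the deposited size factors, at a median of -0.049 on the log2 scale, but 4 of the 7 had higher means and the median was 0.012 when reads were scaled by those outside the mitochondrial genome. That scaling moved the median over all genes from -0.0028 to 0.057, and the genes with a higher mean from 7678 to 10021 of 15579. The values ran from -0.21 for Ndufs7 (SE 0.11, limma adjusted p = 0.515) to -0.014 for Ndufs1 (SE 0.080, adjusted p = 0.966), which was 0.046 when scaled by reads outside the mitochondrial genome, 0.036 without control line 5-9 and 0.038 without PWS line 19-1. Ndufs7 was -0.10 without PWS line 19-1. None of the 7 passed 0.05 in limma, with or without adjustment, or in edgeR or DESeq2 after adjustment.

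Of the 29 supernumerary subunits with a row, which surround the core, 23 had lower and 6 higher means with the deposited size factors (median -0.050), and 12 lower and 17 higher means with that other scaling (median 0.011). Their extremes were Ndufb6 at -0.30 (SE 0.13, limma adjusted p = 0.439) and Ndufs6 at 0.28 (SE 0.27, adjusted p = 0.749), the latter with means of 12 and 14 normalized counts. Ndufb6 was -0.14 without control line 2. None passed in limma, edgeR or DESeq2 after adjustment, and Ndufb6 and Ndufa1 were lower at an unadjusted p-value under 0.05 in limma. Only 40.6% of the Ndufb6 reads and 0.0226% of the Ndufa1 reads were unique. Among 15 assembly factors, 12 had lower and 3 higher means (median -0.072), or 8 and 7 with the other scaling (median -0.012), with extremes of -0.14 for Ndufaf3 (adjusted p = 0.596 in limma) and 0.14 for Ndufaf2 (adjusted p = 0.769), and none passed in limma, edgeR or DESeq2, nor in limma without adjustment. Ndufaf3 was -0.071 without PWS line 19-1, and Ndufaf2 was 0.044 without PWS line 19-4 and 0.24 without PWS line 3. With that same scaling the median over the 7 mitochondrial genes was 0.44, and the difference between the mitochondrial and nuclear parts of complex I was not tested.

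**Figure D5:**
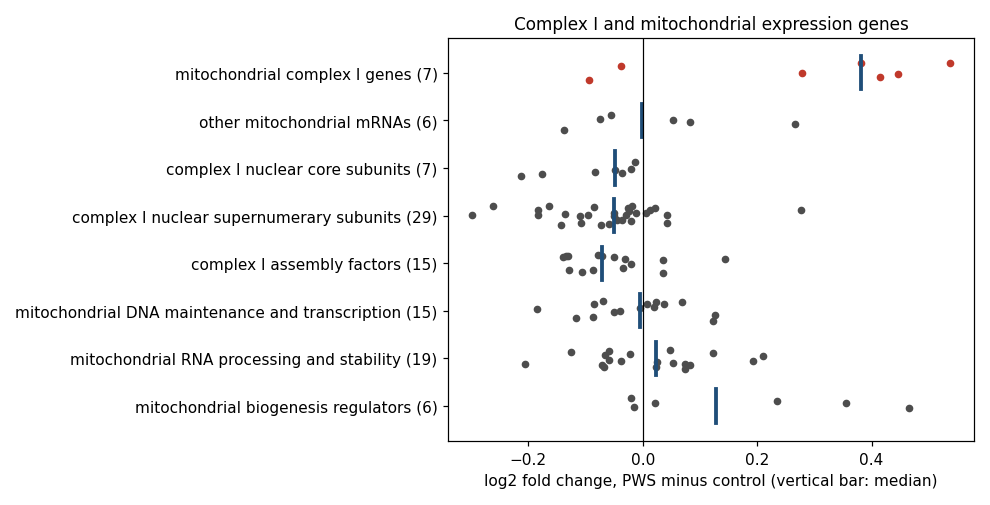
Log2 fold change between PWS and control lines (horizontal axis) of each gene in the mitochondrial complex I genes (red), the other mitochondrial mRNAs and 6 lists of nuclear genes (grey, number of genes in brackets), with a blue bar at the median of each list. With the deposited size factors the median is 0.38 for the mitochondrial complex I genes and lies between -0.072 and 0.13 for the other lists shown. The 24 further mitochondrial rows, with a median of 0.17, are not shown.

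Of 15 genes that copy and transcribe mitochondrial DNA, 7 had higher and 8 lower means (median -0.0041), or 10 and 5 when reads were scaled by those outside the mitochondrial genome (median 0.056). Tfam, which packages mitochondrial DNA, averaged 2758 ± 86.2 normalized counts (SD, n = 3) in controls and 2781 ± 305 (SD, n = 3) in PWS. Polrmt, the mitochondrial RNA polymerase, averaged 549 ± 76.1 (SD, n = 3) in controls and 544 ± 13.4 (SD, n = 3) in PWS. These 2 were picked for their role after their values were seen. The extremes were Polg2 at -0.18 (adjusted p = 0.727 in limma) and Tfb1m at 0.13 (adjusted p = 0.708). Over the lines left out, Polg2 ran from -0.32 (without PWS line 19-4) to -0.045 (without PWS line 19-1) and Tfb1m from 0.044 (without control line 2) to 0.19 (without PWS line 19-1).

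Of 19 genes of mitochondrial RNA processing and stability, 10 had higher and 9 lower means (median 0.023). With that scaling 14 were higher and 5 lower (median 0.083), beside 10021 higher of all 15579 genes. The extremes were -0.21 for Fastk (adjusted p = 0.551 in limma) and 0.21 for Ptcd2 (adjusted p = 0.651). Fastk was -0.086 without PWS line 19-4, and Ptcd2 ran from 0.072 (without control line 2) to 0.37 (without control line 16). Lrpprc and Slirp, whose proteins bind and stabilize mitochondrial mRNAs and which were picked in the same way, had log2 differences of 0.047 (SE 0.078) and -0.067 (SE 0.078). No gene of these 2 lists passed in limma, edgeR or DESeq2, nor in limma without adjustment.

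Of the 6 regulators of mitochondrial biogenesis 4 had higher and 2 lower means (median 0.13). All 6 had higher means when reads were scaled by those outside the mitochondrial genome (median 0.19), and so did 10021 of all 15579 genes. None passed in limma or edgeR after adjustment, 1 had an unadjusted p-value under 0.05 in limma, and 1 passed in DESeq2. Both are Pprc1, a coactivator related to PGC-1alpha, which had 1335 ± 27.7 (SD, n = 3) normalized counts in control and 1708 ± 61.9 (SD, n = 3) in PWS lines, for a log2 difference of 0.36 (SE 0.066, limma adjusted p = 0.164). The extremes were Ppargc1a, which encodes PGC-1alpha itself, at 0.46 (SE 0.29, limma adjusted p = 0.580) and Nrf1, a transcription factor for respiratory genes, at -0.021 (SE 0.070, adjusted p = 0.941), which was 0.039 when scaled by reads outside the mitochondrial genome. Ppargc1a ran from 0.17 (without control line 2) to 0.75 (without control line 16) over the lines left out.

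To find the genes most like the 7, the mean of their centred log2 profiles over the 6 lines was compared with the profile of each of 11694 genes outside the mitochondrial genome whose mean reached 100 normalized counts. The mean profile was -0.22, -0.27 and 0.077 in control lines 5-9, 2 and 16 and 0.055, 0.23 and 0.13 in PWS lines 3, 19-1 and 19-4. The 5 nearest genes with a symbol were Bend7, Nsd3, Rab36, Sec24a and Ranbp9, with root mean square differences of 0.021, 0.042, 0.045, 0.046 and 0.046 on the log2 scale. The members themselves lay between 0.074 (Mt-nd2) and 0.25 (Mt-nd6) from the profile. These 5 genes were picked as the nearest, so their distances are not comparable with those of the members.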

How the data were processed

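Total RNA of 3 control and 3 PWS INS-1 lines, 1 library per line, was analysed. Trimmed stranded reads were mapped by the authors with STAR (2.7.0e in the submitters' processing notes) against the Ensembl rat genome with transgenes added and counted with HTSeq (0.11.2; nonunique all or none) or RSEM (1.3.1). The deposited values are a signal, counts divided by DESeq2 size factors, 1 table per counting. The tables also hold the authors' fold changes and p-values, which were not used. Taking each column's smallest value as 1 read gave whole reads for 100% of nonzero HTSeq values (tolerance 0.001 reads, in proportion above 1000 reads).

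Groups were compared with limma 3.58.1 (eBayes with trend; R 4.3.3) on log2(normalized count + 1), using the 15579 genes whose mean reached 5 and calling genes at a Benjamini-Hochberg adjusted p of 0.05. edgeR 4.0.16 and DESeq2 1.42.0 on the recovered reads were alternatives, as were other pseudocounts, filters, scalings, countings, a block for the replicate number, a mean of lines 19-1 and 19-4, and each line left out. limma, edgeR and DESeq2 were each tested on simulated counts with known changes. The members, the lists and the tests were chosen with earlier results of these data known. Genes were named by rule: all mitochondrial mRNAs, the 2 further mitochondrial rows with the most reads (in place of the rRNAs, which the files do not name), the extremes of each list, the 5 nearest profiles, and Snurf, Snrpn and Mkrn3. Tfam, Polrmt, Lrpprc, Slirp, Ndufa1, Pprc1, AY172581.14, Ins1, Iapp, Chgb, Gcg, Pdgfra, Ptprc, Cdh5, Prss1 and Sst were named outside this rule, after their values were seen. Ndufb1, Col1a2 and Pecam1 had no row under these names, and Fastkd5 and Prorp were matched by an older symbol in a RefSeq table of GRCr8. Sequences, positions and lengths of the mitochondrial genes were not used here.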

Additional observations from a re-analysis of the deposited data

How the results depend on the processing

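Over all genes 40 passed in limma, 228 in DESeq2, 32 in edgeR, 16 with nonunique none counting, 12 with RSEM, 9 with a filter at a mean of 50, and 33 to 55 with each line left out in turn. The cause was not tested, apart from the fewer genes tested under that filter. Of the 7 mitochondrial complex I genes, 0 passed in limma and in edgeR and 2 in DESeq2. On nonunique none reads 0 passed in DESeq2 or edgeR, which called 164 and 10 of 13971 genes there. This alternative was added after the data were seen and leaves Mt-nd4 only 0.647% of its reads. It moves the log2 difference of Mt-nd4 in limma from 0.54 to 0.52 and that of Mt-nd4l from 0.42 to 0.39. DESeq2 called 1 of the 24 further mitochondrial rows and 1 of the 6 biogenesis regulators, against 0 in limma. Leaving out each line in turn gave 0 calls in every mitochondrial and complex I list. The signs of Mt-nd1, Mt-nd2, Mt-nd3, Mt-nd4, Mt-nd4l and Mt-nd5 held under all 19 alternatives of the fit, and that of Mt-nd6 changed in 3 of them. Scaling by reads outside the mitochondrial genome gave log2 differences of 0.0057 for Mt-co2, 0.046 for Ndufs1 and 0.039 for Nrf1, the reverse of their signs above. The values also reversed for Mt-co3 without control line 2 (-0.015) and without PWS line 19-1 (-0.038), in a range up to 0.133 over the lines left out, and for Ndufs1 without control line 5-9 (0.036) and without PWS line 19-1 (0.038), in a range down to -0.062.

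With the replicate number of the labels as a block, 36 genes passed over all genes and 0 of the 7, and it changed no other count by over 1.5 times. Same-numbered lines had correlated deviations of 0.003, 0.047 and 0.005, and not every line correlated best with its own number, so the lines share only a number.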
